A study of Mus musculus with 12 samples.

Results

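The basement membrane and matrix genes described here are Col4a1, Col4a2 and Col18a1 (collagens), Lama1, Lamb1 and Lamc1 (the chains of laminin-111), Nid1 (nidogen-1), Fn1 (fibronectin) and Sparc. They were chosen by name, 9 of the 14042 genes with reads, from reads with the authors' quality tag PASS on transcripts of the mRNA class. The basement membrane is the thin sheet of extracellular matrix that underlies epithelia and surrounds the early neural tube. It is built from a network of type IV collagen and a network of laminin trimers, each made of an alpha, a beta and a gamma chain. Nidogen and heparan sulfate proteoglycans link both networks, fibronectin assembles around cells through integrins, and SPARC is a matricellular protein that binds collagen. Embryonal carcinoma lines have long served to study these genes, because retinoic acid turns the related line F9 into endoderm-like cells that secrete laminin and type IV collagen, whereas P19 cells in neural conditions form neuron-like cells.

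Native poly(A) RNA of wild-type P19 cells, a mouse embryonal carcinoma line, was sequenced on nanopores at day 0 (D0) and after 2, 4 and 6 days of neuronal differentiation (D2, D4, D6), with 3 libraries a day. D0 cells were grown in medium with serum, and the cells of the later days in NDiff 227 medium with 500 nM retinoic acid on a poly-L-lysine coat. Medium, coat, retinoic acid and time therefore changed together between D0 and the rest and cannot be told apart, and each of the 13 sequencing runs held 1 day only. The names of the D0 runs read undifferentiated but carry the mark D2, and 2 D6 runs name no day, so the day was taken from the sample labels. In direct RNA sequencing 1 read gives both the transcript and its poly(A) tail length.

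Libraries held 120326 to 613756 kept reads, and D2 was the shallowest day with 120326 to 241064. The 9 genes together had 1859 reads, from 20 (Nid1) to 535 (Sparc), and 8 of them passed the minimum of 30 reads over the 12 libraries. Levels are reads per 1000000 kept reads (CPM), each library scaled by the trimmed mean of M-values, and changes are log2 fold changes from limma-voom with p-values adjusted over all 9309 genes tested. Of the markers of undifferentiated cells 4 of 4 tested were lower at D6 than at D0, and 10 of 10 neuron markers were higher. In these bulk samples fewer cells that express a gene and less RNA per cell cannot be told apart.

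The 3′ ends of the reads are shown first, because they carry the tail that was measured and separate the forms of 2 of the genes. Each line gives the 30 transcript bases up to the most used end of a cluster of read ends, 5′ to 3′, from the GENCODE vM21 transcripts on GRCm38 (mm10), with the polyadenylation signal AATAAA in capitals. They stand at chr8:11198519-11198548, chr8:11198430-11198459, chr8:11199511-11199540, chr10:77052179-77052208, chr10:77053038-77053067, chr11:55394500-55394529 and chr12:31329613-31329642, in the order of the lines, the first 6 on the minus strand and Lamb1 on the plus strand.
Col4a1 most used: aaatttgtAATAAAactatttgtataaaaa
Col4a1 downstream: accactAATAAAcctgtaagctttgctgca
Col4a1 upstream: atccAATAAAagatgaattgcattttgcaa
Col18a1 most used: gcaccaAATAAAaatgacattttataccaa
Col18a1 upstream: cctcaagaAATAAAaggaagccaaagagta
Sparc: caaAATAAAaagtaacaacttagaaacggc
Lamb1: gttaAATAAAagacattggttttgtataaa

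AATAAA, searched on the transcript strand, began 22 to 27 bases before the end in these 7 windows, and 35.5% of 58793 annotated protein-coding transcripts hold it in their last 30 bases. Of all 12 windows of the members 11 held AATAAA, 8 of them at this distance. In the others it began 29 (Lamc1), 21 (Fn1) and 7 bases (Nid1) before the end, and Lama1 had ATTAAA instead. All 7 ends lie in the last exon, in the 3′ UTR. Sparc and Lamb1 each had 1 end, used by 98.3% and 98.9% of their reads, and Col4a2, Lama1, Lamc1, Nid1 and Fn1 also had a single cluster with 90.8% to 100% of reads.

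Sparc fell at once and came back in part. It lies on chromosome 11 (55394500 to 55423183, minus strand). Its level was 219, 234 and 231 CPM in the D0 libraries, 16.4, 20.6 and 10.5 CPM at D2, 54.7, 35.8 and 69.8 CPM at D4, and 151, 116 and 124 CPM at D6. No day overlapped another, with D2 lowest and D6 still under every D0 library. Limma-voom gave a log2 fold change against D0 of -3.64 ± 0.45 (SE; adjusted p 3.93e-09, n = 3) at D2, -2.12 ± 0.22 (7.91e-12) at D4 and -0.84 ± 0.17 (3.68e-05) at D6. Between later days it rose by 2.80 ± 0.46 from D2 to D6 (3.7e-06 by limma-voom) and by 1.28 ± 0.24 from D4 to D6 (8.89e-05). The step from D2 to D4, 1.52 ± 0.48, missed the threshold (adjusted p 0.0654 by limma-voom) and passed it without D4 replicate 2 (1.78, adjusted p 0.0272). It also passed with limma-trend (1.54, 0.000321) and with a block for the replicate number (1.53, 0.027).

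These Sparc values rest on reads that fit 2 transcripts of 2300 and 2115 bases with the same annotated 3′ end. Of 535 reads, 76 had a mapping quality of at least 10, 75 on the longer transcript and 1 on the shorter. This filter therefore follows mainly 1 form of Sparc. With these 76 reads alone the log2 fold change at D4 was -0.91 (adjusted p 0.16 by limma-voom), at D6 -0.11 (0.875) and from D4 to D6 0.80 (0.366). The fall at D2 was called under every alternative. The D6 call was also lost with thinning to the smallest library (-0.67, adjusted p 0.0647 by limma-voom). Of 198 reads on the shorter transcript 35 began in its first 100 bases, and of 337 on the longer one 3 did. The longer transcript took 59.2% ± 11.4 of Sparc reads at D0 and 93.3% ± 11.5 at D2 (SD, n = 3; two-sided exact permutation p 0.10, the lowest value possible with 3 and 3 libraries, adjusted p 1.0 over 15 tests). The D2 share comes from 9 reads.

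Lamb1, the laminin beta-1 chain, all but disappeared (chromosome 12, 31265234 to 31329644, plus strand). It had 16, 37 and 28 reads in the D0 libraries, 1, 1 and 0 at D2, 0, 1 and 0 at D4, and 0, 1 and 2 at D6. Every D0 library stood above all 9 later ones. In CPM this was 55.5 ± 15.0 (SD, n = 3) at D0 and 4.11 ± 4.11, 0.796 ± 1.38 and 2.53 ± 2.77 on the later days. The pooled rate at D0 was 15.8 times that at D2 (95% exact interval 4.23 to 133), 61.7 times that at D4 (10.8 to 2466) and 21.2 times that at D6 (6.99 to 105). These intervals, and all others on pooled reads, cover counting error only. Limma-voom called all 3 falls (adjusted p 0.000159, 4.71e-08 and 3.96e-07), as did all 24 alternatives that could be fitted. Lamb1 reads map to 1 transcript, and 87 of 87 had a mapping quality of at least 10.

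No fall was called for the other chains of laminin-111. Lama1 (alpha-1; chromosome 17, 67697259 to 67822647, plus strand) had 24.3, 31.3 and 23.3 CPM at D0, 8.21, 24.7 and 20.9 CPM at D2, 25.2, 21.5 and 25.6 CPM at D4, and 10.8, 18.9 and 35.7 CPM at D6. Lamc1 (gamma-1; chromosome 1, 153218922 to 153332786, minus strand) had 24.3, 29.4 and 23.3 CPM at D0, 41.1, 41.2 and 26.2 CPM at D2, 12.6, 11.9 and 30.3 CPM at D4, and 21.6, 27.3 and 32.9 CPM at D6. In both genes every later day overlapped D0. The log2 fold change at D6 had a 95% interval of -1.10 to 0.43 for Lama1 and of -0.60 to 0.80 for Lamc1, and neither includes the -4.04 ± 0.63 (SE) fitted for Lamb1 (95% interval -5.31 to -2.77), although the difference between chains was not itself tested. Of 109 Lamc1 reads 46 had a mapping quality of at least 10, all of them on the transcript with most reads. With those 46 alone its log2 fold change was 1.54 at D6 (adjusted p 0.0567 by limma-voom) and 1.06 at D4 (0.244), against -0.50 at D4 with all reads. Lama1 and Lamc1 were not called in any of the 6 comparisons of days. Of the other beta chains, Lamb2 (named after its values were seen) had 16.3 ± 6.33 CPM at D0 and 21.2 ± 3.35 CPM at D6, a change that was not called (log2 0.47 ± 0.41, adjusted p 0.398 by limma-voom).

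**Figure D1:**
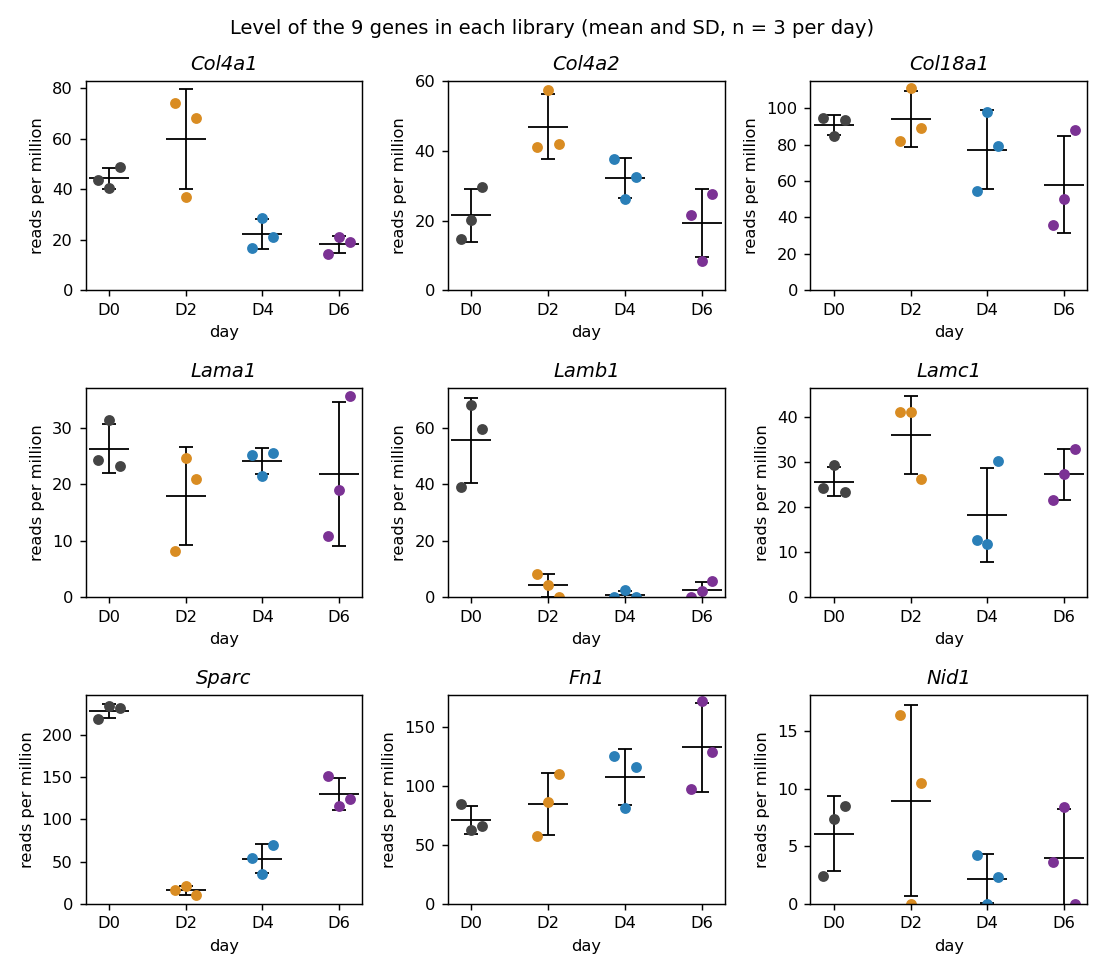
Level of each gene in CPM (y axis, from 0) by day (x axis). Points are libraries, and the bar and whiskers are the mean and SD of 3. Sparc dips to 10.5 to 20.6 CPM at D2 and returns to 116 to 151 CPM at D6, and Lamb1 stays at or under 8.21 CPM after D0.

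Col4a1 and Col4a2 encode the chains of the widespread type IV collagen trimer and are divergent neighbours on chromosome 8 (Col4a1 11198423 to 11312826, minus strand; Col4a2 11312805 to 11449287, plus strand). Their annotated starts overlap by 22 bases, printed here because they belong to both genes (GRCm38.p6 plus strand, RefSeq promoter window, chr8:11312805-11312826).
Shared start: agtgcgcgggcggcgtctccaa

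Col4a1 had 43.7, 40.5 and 48.8 CPM at D0, 73.9, 37.0 and 68.0 CPM at D2, 16.8, 28.6 and 20.9 CPM at D4, and 14.4, 21.0 and 19.2 CPM at D6. The D4 and D6 libraries were all below those of D0 and D2. By limma-voom the difference from D0 was 0.31 ± 0.31 (log2, SE; adjusted p 0.606, n = 3) at D2, -0.91 ± 0.34 (0.0403) at D4 and -1.18 ± 0.36 (0.0069) at D6. From D2 to D6 it fell by 1.49 ± 0.40 (0.00493). The D6 call held with each library left out. Of 140 Col4a1 reads 32 had a mapping quality of at least 10, 31 of them on the transcript with most reads. The D6 call was lost with those 32 alone (-0.95, adjusted p 0.386 by limma-voom), with the transcript with most reads (-1.06, 0.06) and with libraries thinned to equal depth (-1.19, 0.229). The D4 call was kept in 12 of 26 alternatives. It was lost with scaling by library total (-0.79, 0.0814) and without D0 replicate 1 (-0.93, adjusted p 0.0576), without D0 replicate 3 (-0.84, 0.101), and without D4 replicate 1 (-0.81, 0.103), 2 (-1.12, 0.0569) or 3 (-0.84, 0.143). A block for the replicate number also ended it (-0.93, 0.0679). The D4 to D2 difference, -1.22 ± 0.38, had an adjusted p of 0.0597 by limma-voom and passed without D2 replicate 2 (-1.68, 0.0108), without D0 replicate 1 (-1.27, 0.0477) or 2 (-1.27, 0.0459), and without D6 replicate 2 (-1.27, 0.0443).

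Col4a2 had 14.6, 20.2 and 29.7 CPM at D0, 41.1, 57.6 and 41.9 CPM at D2, 37.8, 26.3 and 32.6 CPM at D4, and 21.6, 8.41 and 27.5 CPM at D6. All D2 libraries were above all those of the other days, and D6 overlapped D0. Limma-voom called the rise at D2 (log2 1.20 ± 0.39, adjusted p 0.0333) and the fall from D2 to D6 (-1.57 ± 0.43, 0.00639), and not the changes against D0 at D4 (0.56 ± 0.37, 0.279) and D6 (-0.36 ± 0.42, 0.531). The D2 rise was not called without D0 replicate 1 (1.05, adjusted p 0.0975), D0 replicate 2 (1.22, 0.0738) or D2 replicate 2 (1.09, 0.177). It was kept in 18 of 26 alternatives. It was also lost with limma-trend (1.18, 0.069), barcode confidence of at least 0.9 (1.24, 0.0727), mapping quality of at least 10 (1.20, 0.056), thinning (0.90, 0.536) and a block for the replicate number (1.15, 0.0643). The fall to D6 was not called without D2 replicate 2 (-1.44, 0.053) or D6 replicate 2 (-0.96, 0.147).

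Whether the neighbours changed differently was tested on their ratio in each library. The log2 ratio of Col4a2 to Col4a1 was -1.06 ± 0.41 (SD, n = 3) before differentiation and -0.28 ± 0.77, 0.52 ± 0.60 and -0.07 ± 1.00 on the 3 later days. Only the D4 values were all above those of D0 (two-sided exact permutation p 0.10, against 0.20 at D2 and 0.30 at D6; adjusted p 0.30 for each of 3 tests). With 3 against 3 libraries p cannot be lower than 0.10, so this test could not show a difference between the genes.

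Col18a1 encodes collagen XVIII, a basement membrane collagen and heparan sulfate proteoglycan whose C-terminal fragment is endostatin (chromosome 10, 77052178 to 77166548, minus strand). It had 94.7, 84.7 and 93.3 CPM at D0, 82.1, 111 and 89.0 CPM at D2, 54.7, 97.9 and 79.1 CPM at D4, and 36.0, 50.4 and 87.9 CPM at D6. D6 replicate 3 lay within the D0 range and the other D6 libraries below it. The change at D6 was called (log2 -0.68 ± 0.24, adjusted p 0.0216 by limma-voom), and those at D2 (0.11 ± 0.26, 0.841) and D4 (-0.19 ± 0.23, 0.583) were not. The D6 call was lost without D0 replicate 1 (-0.63, adjusted p 0.0527), D0 replicate 3 (-0.64, 0.0564), D6 replicate 1 (-0.48, 0.132) or D6 replicate 2 (-0.53, 0.155), and with scaling by library total (-0.43, 0.167). It was kept in 16 of 26 alternatives. It was also lost with mapping quality of at least 10 (-0.51, 0.23), the transcript with most reads (-0.51, 0.165), thinning (-0.81, 0.14), barcode confidence of at least 0.9 (-0.59, 0.0679) and a block for the replicate number (-0.64, 0.0542). All 202 reads that passed the mapping filter were on the transcript with most reads. From D2 to D6 Col18a1 changed by -0.80 ± 0.29 (0.0456), a call lost without any one of D2 replicate 1 (-0.85, 0.0507), 2 (-0.69, 0.204) or 3 (-0.87, 0.0632), or D6 replicate 1 (-0.63, 0.136) or 2 (-0.70, 0.155). A block for the replicate number also ended this call (-0.75, 0.0694).

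Fn1 was the member that rose at D6. It encodes fibronectin (chromosome 1, 71585520 to 71653200, minus strand). It had 85.0, 62.6 and 65.8 CPM at D0, 57.5, 86.4 and 110 CPM at D2, 126, 81.2 and 116 CPM at D4, and 97.3, 172 and 129 CPM at D6. All D6 libraries were above all D0 libraries, and the days between overlapped both. Relative to D0 its log2 level was higher by 0.95 ± 0.21 at D6 (adjusted p 0.000284 by limma-voom, n = 3), with differences of 0.57 ± 0.22 at D4 (0.0523) and 0.33 ± 0.28 at D2 (0.528). The D6 call held with each library left out and was lost with thinning (0.82, adjusted p 0.0956 by limma-voom). The D4 change passed without D0 replicate 1 (0.68, adjusted p 0.0435), D2 replicate 3 (0.57, 0.049), D4 replicate 2 (0.78, 0.0145), D6 replicate 1 (0.56, 0.0455) or D6 replicate 2 (0.57, 0.0425), and with scaling by library total (0.68, 0.0224). The D6 to D2 difference, 0.62 ± 0.27 (0.102), passed without D6 replicate 1 (0.75, 0.0433). Fn1 reads were spread over 8 transcripts and 1 of 419 had a mapping quality of at least 10, so its splice forms were not resolved here.

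Nid1 encodes nidogen-1, which bridges laminin and type IV collagen (chromosome 13, 13437551 to 13512269, plus strand). Its reads numbered 1, 4 and 4 in the D0 libraries, 2, 0 and 2 in D2, 1, 0 and 1 in D4, and 1, 4 and 0 in D6, and the libraries of all days overlapped. At 20 reads it was under the minimum, and the pooled ratio of D6 to D0 was 0.709 with a 95% exact interval of 0.187 to 2.36. A change in Nid1 was not detectable at this depth.

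**Figure D2:**
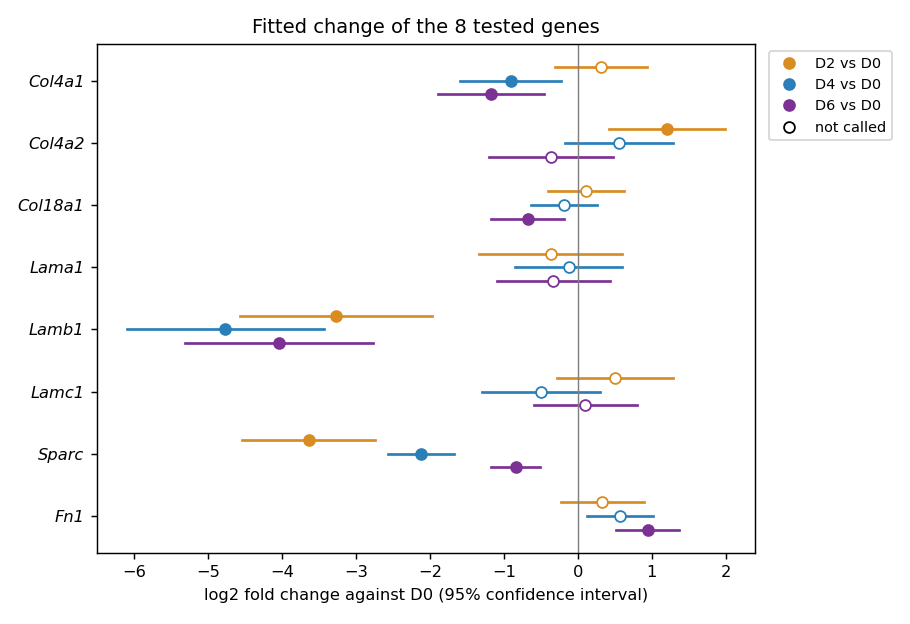
Log2 fold change against D0 (x axis) of the 8 tested genes (y axis), with 95% confidence intervals; filled points have an adjusted p of at most 0.05 by limma-voom. Sparc and Lamb1 are lower on each day, with Sparc moving from -3.64 to -0.84, and Fn1 is higher at D6 by 0.95.

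Counted together, 3 of 8 tested members were called at D2 against D0 (Col4a2 higher, Lamb1 and Sparc lower), where 10.8% of all 9309 genes were called, 4.69% higher and 6.16% lower. At D4 the count was 3 (Lamb1, Sparc and Col4a1, all lower) against 25.4% of genes, 12.9% higher and 12.5% lower. At D6 it was 5 (Fn1 higher, and Lamb1, Sparc, Col4a1 and Col18a1 lower) against 37.7%, 19% higher and 18.7% lower. These 3 comparisons share the D0 libraries. From D2 to D4 limma-voom called 0 members, against 3.1% of genes (2.03% higher, 1.07% lower), and 3 members (Col4a1, Lamc1 and Sparc) had an unadjusted p under 0.05, as had 15.9% of all genes. From D4 to D6 it called 1 member (Sparc, higher), against 8.46% (4.13% higher, 4.34% lower). From D2 to D6 it called 4 (Sparc higher, Col4a1, Col4a2 and Col18a1 lower), against 17.5% (9.18% higher, 8.36% lower). The median log2 fold change of the tested members against D0 was 0.21 after 2 days, -0.35 after 4 and -0.52 after 6, and that of all genes was -0.04, 0.01 and 0.0. Scaling by library total shifted the members by 0.18, 0.11 and 0.26 and all calls at D6 to 2607 higher and 1154 lower, in place of 1771 and 1739. At D2 it gave 703 higher and 371 lower in place of 437 and 573, at D4 1532 and 922 in place of 1197 and 1167, between D4 and D6 584 and 255 in place of 384 and 404, and between D2 and D4 170 and 138 in place of 189 and 100.

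The 9 genes took 0.0514% ± 0.00148 of the kept reads at D0 (mean ± SD, n = 3). The share was 0.0375% ± 0.00227 at D2 and 0.033% ± 0.00474 at D4, and D6 had 0.0445% ± 0.00709. The lowest D0 library, 0.0501%, lay just above the highest later one, 0.0499% at D6. Without Sparc and Lamb1 the other 7 genes took 0.0258% ± 0.00121 in the D0 libraries and 0.0355% ± 0.00282 in those of D2, where their mean was highest, then 0.0277% ± 0.00309 (D4) and 0.0303% ± 0.00814 (D6). These shares are of library totals, without the scaling behind the CPM, and were not tested. That choice alone shifted the members' log2 changes against D0 by a median of 0.18 (D2), 0.11 (D4) and 0.26 (D6). Sparc and Lamb1 had the largest falls at D2 and D4, so leaving them out lifts the later days relative to D0.

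Markers of other cell types that make such matrix were summed by list. Of 17 genes of primitive and parietal endoderm, 8 had no reads, among them Gata4, Sox17, Hnf4a, Afp and Ttr. The list summed to 23.9 to 38.2 CPM at D0, 15.7 to 41.2 at D2, 101 to 126 at D4 and 12.6 to 50.4 at D6, and 120 of its 126 reads at D4 were of Pth1r. Without Pth1r the list had 23 reads at D0, and 9, 6 and 10 on the 3 later days, unscaled for depth. Its sum was 9.2 to 21.9 CPM at D0 and 10.5 to 20.6 CPM at D2, so no fall was seen at D2. The ranges of D4 and D6 also overlapped that of D0. Dab2, named after its values were seen, had 13 of the 23 D0 reads and 1, 1 and 2 on the later days, so it was highest at D0. Not all of the list followed it. Sox7 had 0 reads at D0 and 3 on each later day, and Gata6 had 2 at D0 and 2, 2 and 3 later. The part of these genes in the falls of the members was not tested. Of 7 endothelial genes 5 had no reads, Pecam1 and Cdh5 included, and the sum was at most 4.21 CPM in any library. Of 12 mesenchyme genes 8 had reads, and their sum was 38.2 to 48.6 CPM at D0, 10.5 to 16.5 at D2, 11.9 to 21.0 at D4 and 4.2 to 21.6 at D6. Like Lamb1, the sum was highest at D0, where Acta2 had 29 reads, Tagln 14 and Col1a2 11. Other genes of the list went the other way. Prrx1 had 2 reads at D0 and 9 at D4, Twist2 0 at D0 and 5 at D4, and Twist1 4 at D0 and 5 at D6. The part of this list in the falls of Lamb1 and Sparc was not tested.

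Tails were compared for the members with at least 5 reads in each of the 6 libraries. The median of Sparc reads was 93.7, 89.7 and 79.7 nt in the D0 libraries, 118, 96.1 and 96.5 nt at D4, and 104, 84.7 and 95.8 nt at D6. For Fn1 it was 108, 109 and 108 nt at D0 and 108, 113 and 123 nt at D6. For Col18a1 it was 76.4, 105 and 114 nt at D0 and 93.4, 108 and 112 nt at D6. D0 and D6 overlapped in all 3 genes, and the D4 medians of Sparc were all above those of D0.

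No tail change was called for any member. Limma on medians weighted by reads, adjusted over all genes tested, called 0 of 5 members at D2, 0 of 5 at D4 and 0 of 4 at D6, where 2.7% of 3411, 2.32% of 5301 and 3.88% of 5491 genes were called. No member had an unadjusted p under 0.05, against 333, 503 and 772 genes. The difference at D6 was 6.46 nt for Sparc (95% interval -9.97 to 22.9), 7.14 nt for Fn1 (-13.1 to 27.3), 8.03 nt for Col18a1 (-17.5 to 33.6) and -12.6 nt for Lamc1 (-54.2 to 28.9), beside a median of 5.37 nt over all genes. At D4, where the median over all genes was -0.757 nt, it was 13.9 nt for Sparc (-8.43 to 36.1), 17.8 nt for Lama1 (-21.4 to 57.0) and -23.8 nt for Col4a2 (-66.9 to 19.2). Differences within these intervals were not excluded by these data.

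Tail classes were compared by exact permutation only, which cannot give a p under 0.10 with 3 against 3 libraries, so they are given as a description. For Sparc the share of reads whose tail had 30 to 90 nt was 51.5% ± 7.65 in D0 libraries, 38.0% ± 6.51 in D4 and 42.7% ± 2.53 in D6 libraries (SD, n = 3). No library at D4 reached a D0 library (two-sided exact permutation p 0.10, the smallest possible; adjusted p 1.0 over 28 tests). For Col18a1 it was 42.5% ± 12.1 before differentiation and 29.7% ± 0.297 on day 2 (exact permutation p 0.10, adjusted 1.0). At D0 tails under 30 nt were found on 5 of 326 Sparc reads, 2 of 100 Fn1 reads, 5 of 129 Col18a1 reads and 0 of 38 Lama1 reads. The highest shares on a later day were 3 of 26 Lama1 reads (D4) and 5 of 54 Col18a1 reads (D2). The few Lamb1 reads of the later days had medians of 61.1 nt (2 reads), 59.7 nt (1 read) and 48.4 nt (3 reads), against 120 nt for 81 reads at D0, and were too few to test.

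**Figure D3:**
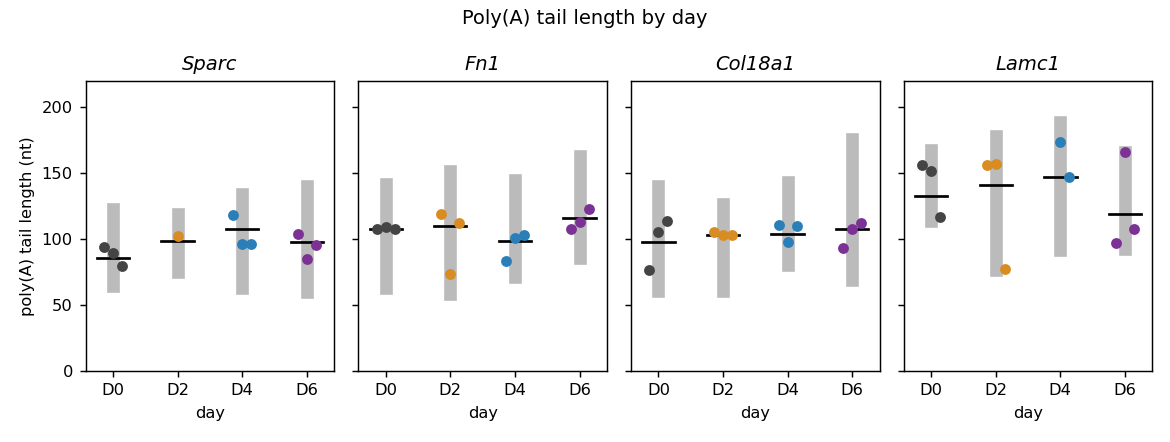
Poly(A) tail length in nt (y axis, from 0) by day (x axis) for Sparc, Fn1, Col18a1 and Lamc1. Points are library medians with at least 5 reads, black lines the median and grey bars the interquartile range of the pooled reads of a day. Library medians of D0 and D6 overlap in each gene.

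The 3′ ends printed above divide Col18a1 and Col4a1. Col18a1 had 197 of 337 reads at the downstream end and 134 at an end 859 bases upstream. In the D0 libraries the downstream end had 27 of 39, 22 of 44 and 22 of 42 of the reads at both ends, and in the D6 libraries 5 of 10, 18 of 24 and 19 of 32. Its mean share was 57.2% ± 10.5 (SD, n = 3) before differentiation, then 68.8% ± 18.3, 58.4% ± 2.81 and 61.5% ± 12.6 on the later days, and all days overlapped D0 (exact permutation p 0.50, 1.0 and 0.70, adjusted p 1.0 over 6 tests). Col4a1 had 78 of 140 reads at the most used end, 25 at one 89 bases downstream and 21 at one 992 bases upstream. The most used end took 82.5% ± 6.48 of the reads at the first 2 of these at D0 and 80.6% ± 17.3 at D6 (exact permutation p 1.0). From D0 to D6 Col4a1 had 37 and 14 reads at the most used end, 8 and 4 at the downstream one and 9 and 1 at the upstream one, unscaled and without a test of each end.

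**Figure D4:**
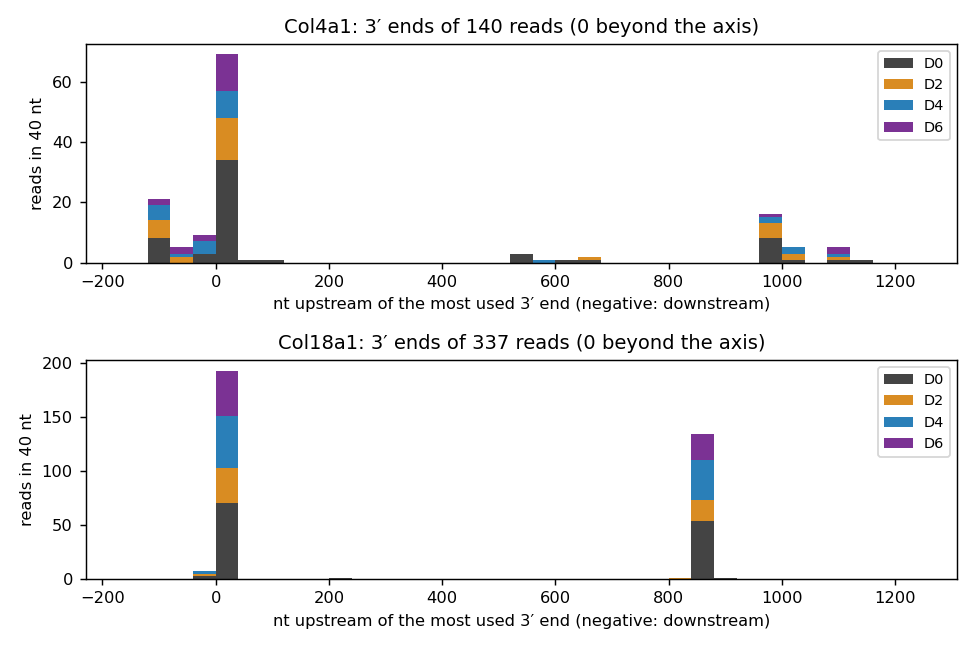
Number of reads (y axis) by distance of the read's 3′ end from the most used end (x axis, nt), in bars of 40 nt stacked by day, for Col4a1 and Col18a1. Col18a1 shows a second cluster 859 nt upstream, and Col4a1 has smaller clusters 89 nt downstream and 992 nt upstream.

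Sparc reads covered a median of 83.9% of the longer transcript (337 reads) and 51.0% of the shorter one (198 reads). The median aligned length was 865 to 1525 bases per gene, and the longest read of a gene aligned over 2295 (Sparc) to 4132 bases (Lamc1). On Lama1, whose transcript has 9526 bases, the median read covered 10.3% of the length. For Col4a1, Lamc1, Fn1 and Col18a1 the share of the most used transcript had an exact permutation p of 0.30 or more on every day.

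Other parts of the matrix pathway were described by lists, beside all genes, of which 19% were higher after 6 days and 18.7% were lower. Of 26 other basement membrane components 10 could be tested, and 5 were lower and 0 higher at D6 than at D0 by limma-voom, with a median log2 fold change of -1.23 beside 0.0 for all genes. Frem2, a subunit of the Fraser complex at the epidermal basement membrane, fell from 26 reads at D0 to 1 at D6 (pooled rate 20.4 times higher at D0, 95% exact interval 3.35 to 835). Lama5, a laminin alpha chain, fell from 27.7 ± 5.20 to 3.02 ± 3.16 CPM (log2 -2.82 ± 0.63, adjusted p 0.000241 by limma-voom). The others that fell, named after their values were seen, were Nid2 (nidogen-2, -2.12), Pxdn (peroxidasin, which cross-links type IV collagen, -1.76) and Hspg2 (perlecan, -1.62).

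Among enzymes and chaperones that modify and secrete collagen, 9 of 17 tested were lower at D6 and 1 was higher, with a median of -0.70. P4ha2, a collagen prolyl 4-hydroxylase subunit, changed by -3.06 ± 0.65 (adjusted p 0.000105 by limma-voom) from 29.6 ± 7.75 CPM at D0. Plod2, a lysyl hydroxylase, changed by -2.68 ± 0.61 (0.000325) from 37.9 ± 5.26 CPM. Bmp1, a procollagen C-proteinase, had 2 reads at D0 and 13 at D6, a pooled ratio of 8.3 (95% exact interval 1.88 to 75.7).

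Of 12 matrix receptors tested, 3 were higher and 5 lower at D6, the former near the share of all genes (19%). Itgb5, an integrin beta chain that pairs with alpha-V, had 51, 76 and 85 reads in the D0 libraries and 0, 2 and 2 at D6 (log2 -5.12 ± 0.60, adjusted p 1.5e-10 by limma-voom). Sdc4, a syndecan, changed by -2.13 ± 0.71 (0.0136). Itgb8, the beta chain of another alpha-V integrin, rose by 3.21 ± 0.66 (6.25e-05), and Sdc3, a syndecan of the nervous system, had 1 read at D0 and 59 at D6 (pooled ratio 75.3, 95% exact interval 13 to 3024). Itga6 and Itgb1, the chains of a laminin receptor and named after their values were seen, had log2 changes of -1.67 ± 0.33 (3.01e-05 by limma-voom) and 0.06 ± 0.20 (0.834).

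Interstitial and neural matrix genes had 2 higher and 1 lower of 8 tested at D6, close to the shares over all genes. Spock2, a testican proteoglycan of the brain, rose from 10.9 ± 6.73 to 82.2 ± 4.35 CPM (log2 3.07 ± 0.42, adjusted p 1.77e-08 by limma-voom). Vcan (versican) rose by 1.83 ± 0.42 (0.000371) and Col2a1 (type II collagen) fell by 1.29 ± 0.37 (0.00369). Of 9 remodelling genes tested 2 were higher and 3 lower at D6. Plat (tissue plasminogen activator) had 3 reads at D0 and 20 at D6 (pooled ratio 8.51, 95% exact interval 2.52 to 44.7), and Ctsb (cathepsin B) rose by 0.66 ± 0.23 (0.0165). Adamts9, a metalloproteinase, had 23 and 2 reads (rate 9.01 times higher at D0, interval 2.23 to 78.8), and Timp1, a metalloproteinase inhibitor, 26 and 2 (10.2 times, 2.55 to 88.6).

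The same lists were counted at D2 and D4 against D0, where 4.69% and 12.9% of all genes were higher and 6.16% and 12.5% lower. Other basement membrane components had 1 and 5 lower, with none higher, and collagen maturation genes 5 lower on each day with 1 and 2 higher. Receptors had 2 lower on each day with 0 and 3 higher, interstitial genes 0 and 1 lower with 1 higher on each, and remodelling genes 1 lower on each with 0 and 2 higher.

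**Figure D5:**
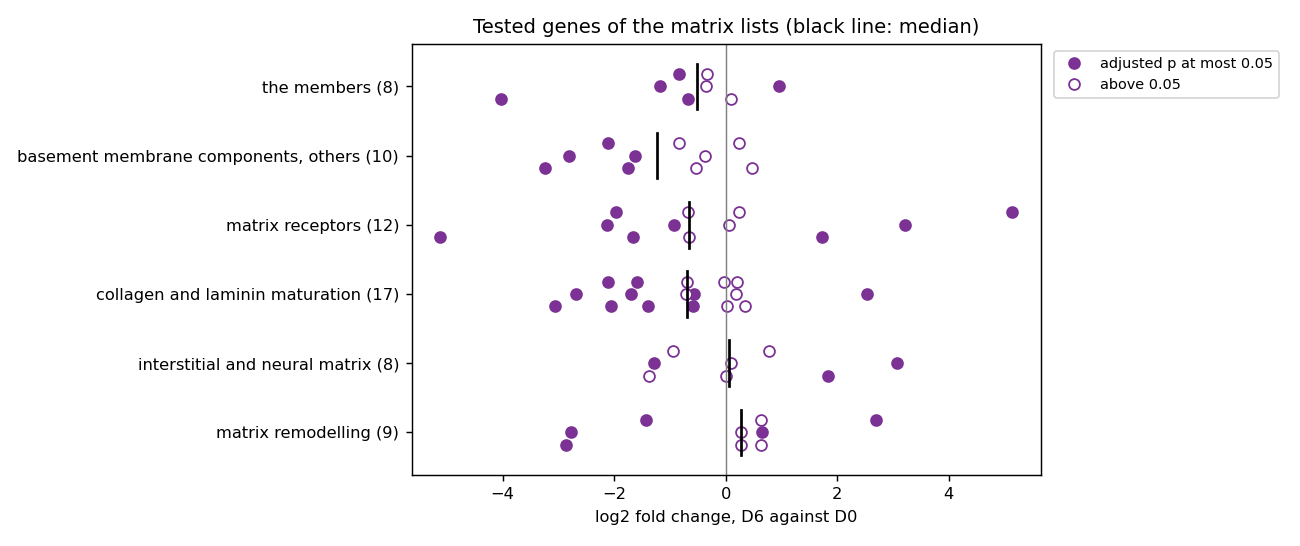
Log2 fold change at D6 against D0 (x axis) of the tested genes of each list (y axis, number tested in parentheses); filled points have an adjusted p of at most 0.05 and black lines are medians. Other basement membrane components have a median of -1.23 and 5 filled points, all below 0.

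The members did not share 1 time course. Over the 12 libraries the correlation of log2 levels between pairs of members ran from -0.69 (Lamb1 and Fn1) to 0.64 (Col4a1 and Col18a1). Among 2793 genes that averaged 20 or more reads a library, those most like the mean profile of the 9 members included Gart, Etf1, Eif4ebp2 and M6pr (Pearson's r 0.84 to 0.88). Lamb1 was most like Pou5f1 (r 0.95), the pluripotency factor, and Sparc most like Dynlt1b (r 0.95). The others were most like Hadh (Col4a1, 0.90), Decr1 (Col4a2, 0.92), Slc39a7 (Lama1, 0.84), Dvl2 (Lamc1, 0.85), Diablo (Nid1, 0.86), Usp22 (Fn1, 0.90) and Nup188 (Col18a1, 0.92). The 12 points fall into 4 days and share depth and scaling, so these values only describe the libraries.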

How the data were processed

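Poly(A) RNA of 12 P19 libraries was sequenced on nanopores. Base calling by the authors used Guppy, alignment to mm10 transcripts used minimap2 (2.20, per the submitters' processing notes), tails came from Nanopolish and barcodes from Deeplexicon. In the deposited per-read table tail length is in nt, mapping quality is a score from the aligner, and barcode confidence is a fraction, as deposited by the authors. Its 6306434 lines included 69 malformed ones and 289260 (4.59%) without a barcode. A second deposited table, of the authors' own DESeq2 fold changes and adjusted p-values, was not used.

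PASS reads on mRNA-class transcripts were tallied per gene, without mitochondrial and pseudogene transcripts (351376 lines), leaving 4274320. The table holds no count column, so tallies of all 12 libraries were fitted together with limma-voom (limma 3.58.1, R 4.3.3), with trimmed-mean scaling (30% and 5%), 0.5 reads added and a minimum of 30 reads over the 12 libraries. Changes were called at an adjusted p of at most 0.05. Median tails were fitted by limma. Other values used exact tests (scipy 1.17.1, Python 3.11.15). The fits were tested on simulated data. Members and lists were chosen with earlier results of these data known. All members were named, and from each list the 2 largest called rises and falls at D6. The comparison of D6 with D2, the collagen IV ratio and the grouping of 3′ ends (within 25 nt) were added after the data had been seen. Libraries of a day are biological replicates per the study. Libraries were grouped by sample labels. One gene among those most alike in profile is not reported here.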

Additional observations from a re-analysis of the deposited data

How the results depend on the processing

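The falls of Lamb1 on each day and of Sparc at D2 were called under every alternative that could be fitted. The count of called members moved by more than 1.5 times under a few settings. Thinned to 120326 reads per library, the D2, D4 and D6 counts against D0 were 1, 1 and 0, and 1 between D2 and D6; 6 members could then be tested. With mapping quality of at least 10 it was 1 at D4, 1 at D6, 0 between D4 and D6, and 2 between D2 and D6; Fn1, with 1 such read, was not tested. With the transcript with most reads it was 3 at D6 and 2 between D2 and D6. Between D2 and D4, where none was called, it was 1 with median ratio scaling, 1 with at least 100 reads, 2 with limma-trend and 1 with the replicate block. With every quality tag, tried after seeing the data as was the restriction to protein-coding transcripts, it was 2 between D4 and D6. With 1 library left out in turn the counts ranged from 2 to 3 at D2, 2 to 4 at D4, 4 to 5 at D6, 0 to 1 between D2 and D4, 1 to 1 between D4 and D6, and 2 to 4 between D2 and D6.

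Deviations of libraries with the same number had a median correlation of 0.23 (-0.16 to 0.50, 12 of 18 pairs over 0.1), against -0.13 for other numbers (8 of 36 over 0.1). As not every same-number pair was over 0.1, the numbers were not treated as pairs. Not every library correlated best with its own number. With the replicate block 2, 2 and 4 members were called against D0 on the 3 later days, and 1 between D4 and D6. It ended the calls of Col4a2 at D2 (1.15, adjusted p 0.0643), Col4a1 at D4 (-0.93, 0.0679) and Col18a1 at D6 (-0.64, 0.0542) and from D2 to D6 (-0.75, 0.0694), and added Sparc from D2 to D4 (1.53, 0.027). Of 154 single tail values under the alternatives 0 were called, with a lowest adjusted p of 0.203, and no called change of a member turned its direction. Among 794 values called in neither fit 17 had another sign. Depth limits the members with few reads: the interval for Lama1 at D2, with 11 reads on that day, ran from -1.34 to 0.59 on the log2 scale.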

Other observations

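The tails of Col18a1 were also set out by 3′ end, a split chosen after the data had been seen. At the upstream end the median of the pooled reads was 94.6 nt at D0 (54 reads), 112 nt at D2 (19), 121 nt at D4 (37) and 130 nt at D6 (24). At the downstream end it was 99.0 nt (71), 96.7 nt (34), 93.2 nt (50) and 101 nt (42). D0, D4 and D6 had at least 5 reads at each end in every library. The library medians at the upstream end were 88.9, 108 and 98.7 nt at D0, 161, 120 and 110 nt at D4, and 155, 120 and 123 nt at D6, so those of D4 and D6 were all above D0. The two-sided exact permutation p was 0.10 for both days, the smallest possible with n = 3, and 0.20 after adjustment over 4 tests. At the downstream end the days overlapped (exact permutation p 0.90 and 1.0, adjusted p 1.0).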
